A study of Macaca mulatta with 2 samples.

Results

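PRF1, GNLY, NKG7, CST7 and SRGN are 5 of the 35432 gene features counted in circulating CD4+CD8+ double-positive (DP) T cells of the rhesus monkey. They were chosen by name as genes of the cytotoxic granule. Their levels were followed across cells with 0, 1-2, 3-9 and 10 or more unique molecular identifiers (UMIs, 1 for each captured RNA molecule) of GZMB, and across cells gated on UMIs of CX3CR1, EOMES, TRAV10 and CCR7. The cells came from the peripheral blood of 1 healthy male animal aged 6 years, and no treatment was described. CD4+ cells were taken with releasable magnetic beads and the CD8+ cells among them with a second set of beads, and their RNA and their bound CD4 and CD8 antibody tags were sequenced as separate libraries. There is 1 sample, so cells are not replicates, no test was made, and all intervals below are exact 95% intervals for counting error only.

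Cytotoxic lymphocytes kill by emptying granules onto a target cell. Perforin opens the membrane of the target so that granzymes, which are serine proteases, can enter. Granulysin damages the membranes of microbes and cells. In human blood, T cells that carry both CD4 and CD8 include effector cells with such granules next to cells that lack them.

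After filtering, 7601 cells and 14459 genes remained, with a median of 3636 UMIs per cell (502 to 23511) and 31003071 UMIs in all. The summed level of CD3E, CD3D, CD3G and TRAC was 3002 CPM, where CPM is the summed UMIs of a gene per 1000000 summed UMIs of the same cells. The 8 monocyte markers found of 9 summed to 26.4 CPM, the 3 platelet markers found of 6 to 1.23 CPM, the 7 NK cell markers found of 8 to 182 CPM, the 6 B cell markers to 171 CPM, and the 2 red blood cell markers found of 5 to 234 CPM. In 86 cells, 3 or more UMIs of B cell genes were found but no UMI of CD3E, CD3D or CD3G, and these served as cells that should lack granules. UMIs of a 5′ assay count captured molecules whatever their length. Capture may differ between genes and was not measured, so levels of different genes compare captured molecules only.

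The members lie on 4 autosomes of the Mmul_10 genome, and the 200 bases before the RefSeq 5′ end are shown for 4 of them. Capitals mark matches to short motifs searched on both strands, of which 4 are reported here. None of the 5′ ends was measured here.
PRF1, chr9:67182493-67182692, plus strand: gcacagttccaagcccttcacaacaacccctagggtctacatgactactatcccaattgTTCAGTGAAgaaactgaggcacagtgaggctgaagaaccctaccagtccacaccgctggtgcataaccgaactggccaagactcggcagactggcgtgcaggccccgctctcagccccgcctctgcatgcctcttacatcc
NKG7, chr19:51164181-51164380, minus strand: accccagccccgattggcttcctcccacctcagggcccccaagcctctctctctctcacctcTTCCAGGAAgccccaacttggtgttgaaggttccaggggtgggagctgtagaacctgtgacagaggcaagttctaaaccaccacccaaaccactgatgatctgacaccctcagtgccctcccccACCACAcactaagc
GNLY, chr13:22782837-22783036, minus strand: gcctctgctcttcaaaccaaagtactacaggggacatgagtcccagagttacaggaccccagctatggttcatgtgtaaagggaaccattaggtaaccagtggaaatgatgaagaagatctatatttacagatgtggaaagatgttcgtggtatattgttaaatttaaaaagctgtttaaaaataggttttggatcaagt
SRGN, chr9:68715356-68715555, minus strand: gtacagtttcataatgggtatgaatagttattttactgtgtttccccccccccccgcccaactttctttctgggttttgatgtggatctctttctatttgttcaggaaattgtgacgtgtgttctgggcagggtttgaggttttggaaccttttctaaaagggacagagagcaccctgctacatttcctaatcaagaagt

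The STAT motif TTCNNNGAA was found before PRF1 and NKG7, and 4.70% of 21111 protein-coding promoters of the same length hold it. The RUNX motif TGTGGT, read on the opposite strand, was found before NKG7 (8.90% of promoters). None of the 4 windows held the T-box motif GGTGTGA (2.76%) or the ETS motif CCGGAAG (6.32%). The windows before GNLY and SRGN held none of the 4 motifs and had the lowest GC content of the 4 windows, 38.5% and 43.0% against 56.5% for PRF1 and 58.5% for NKG7. CST7 is not among the windows shown, and the relation of motifs or GC content to the members' levels was not tested.

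The genes themselves span chr9:67182693-67188420 on the plus strand for PRF1 (3 exons), chr9:68701782-68715355 on the minus strand for SRGN (2 to 3 exons by transcript), chr10:41666049-41676637 on the minus strand for CST7 (4 exons), chr13:22778040-22782836 on the minus strand for GNLY (5 to 6 exons) and chr19:51162703-51164180 on the minus strand for NKG7 (4 exons). PRF1 and SRGN lie on the same chromosome, 1513 kb apart. GNLY carried no symbol in the deposited gene list and was found through its gene identifier, ENSMMUG00000063583, whose place between ATOH8 and SFTPB is also that of GNLY in RefSeq.

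Over all 7601 cells, SRGN had the most UMIs of the members and PRF1 the fewest. SRGN encodes serglycin, the proteoglycan on which granule proteins are packed. It reached 1537 CPM (1523 to 1551), rank 110 among all genes by UMIs, and 95.5% of cells held a UMI of it. NKG7, a membrane protein of the granule that takes part in its release, reached 835 CPM (824 to 845), rank 169, with a UMI in 59.6% of cells. CST7 encodes cystatin F, an inhibitor of the cathepsins that activate granzymes, and stood at 480 CPM (472 to 487), rank 237, with a UMI in 54.6% of cells. GNLY, granulysin, stood at 378 CPM (372 to 385), rank 284, with a UMI in 39.4% of cells. PRF1, perforin, stood at 71.3 CPM (68.3 to 74.3), rank 1533, with a UMI in 19.5% of cells. No 2 neighbours in this order had overlapping counting intervals. The 5 genes together made up 0.330% of all UMIs.

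The genes differed in the share of their UMIs held by few cells. The 5% of cells with the most UMIs of a gene held 14.1% of the SRGN UMIs, 23.1% for NKG7 and 23.5% for CST7, but 39.8% for GNLY and 45.5% for PRF1. This share also rises when a gene has few UMIs, and PRF1 had 2209 in all. No baseline at equal counts was made, so the shares do not rank the genes by unevenness. PRF1 was sparse rather than high in a few cells, with 0 UMIs in 6117 cells, 1-2 in 1330, 3-9 in 153 and 10 in a single cell. GNLY was at 0 in 4610 cells and at 10 or more in 203, up to 87 UMIs in 1 cell. The counting intervals do not cover this uneven spread over cells.

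In the 86 cells with B cell genes, PRF1 was not found (0 of 86 cells, which allows a share of cells with a UMI of up to 3.49%, taken as 3 counts of the total). GNLY had 2 UMIs, NKG7 4, CST7 13 and SRGN 81 there, at a median depth of 4121.5 UMIs. Those correspond to 5.04, 10.1, 32.8 and 204 CPM. A UMI of NKG7 was present in 4.65% of those cells and in 31.4% of the cells with no GZMB UMI, whose median depth was 4018 UMIs. For GNLY the shares were 2.33% and 20.9%, for CST7 8.14% and 26.6%, and for SRGN 39.5% and 93.0%. GZMB had 263 UMIs in the cells with B cell genes, of which 147 and 111 lay in 2 cells, and neither of these held PRF1, GNLY or NKG7.

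All 5 members were higher in cells with 10 or more GZMB UMIs than in cells with none, and they fell into groups by size. NKG7 (10.1-fold), PRF1 (8.92-fold) and CST7 (8.56-fold) differed most, with GNLY at 2.84-fold and SRGN at 2.07-fold. Past 2-fold higher on the scale of CPM + 10 were 5 of 5 members, against 2.76% of the 10158 genes with at least 50 UMIs. GZMB, granzyme B, is the protease that sets these bins. The bins held 4254 cells with 0 UMIs, 528 with 1-2, 1140 with 3-9 and 1679 with 10 or more, at median depths of 4018, 3331, 3141 and 3416 UMIs. The bin with the lowest granule levels was therefore the deepest. The NK cell markers, summed, also differed over the bins, at 98.98, 255, 278 and 328 CPM, and the T cell markers ran 2710, 3025, 3343 and 3573 CPM. The B cell markers ran the other way, at 234, 194, 86.2 and 48.2 CPM, and the cycling cell markers stood at 90.04, 119, 116 and 226 CPM. The 2 plasmacytoid dendritic cell markers found of 5, IRF7 and TCF4, stood at 30.7, 38.5, 35.7 and 46.1 CPM. The part of the cells with these markers in the members' levels was not tested. In the NK cell list, KLRF1 and TYROBP held 2178 and 3277 of 5651 UMIs, FCER1G 148, NCR1 25, FCGR3 14, NCAM1 6 and SH2D1B 3. All 6 NCAM1 UMIs lay in cells at GZMB 0. Cells with 10 or more GZMB UMIs held 1216 UMIs of KLRF1, 921 of TYROBP, 81 of FCER1G, 6 of NCR1, 11 of FCGR3 and 2 of SH2D1B.

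NKG7 stood at 205 CPM at GZMB 0, 939 at 1-2, 1518 at 3-9 and 2081 at 10 or more. CST7 ran 135, 548, 863 and 1153 CPM over the same bins. PRF1 ran 19.2, 85.9, 130 and 171 CPM. For these 3 genes each bin lay above the one before it without overlap of the counting intervals. The log2 ratio of the highest bin to GZMB 0 was 3.34 (3.29 to 3.40) for NKG7, 3.16 (2.98 to 3.33) for PRF1 and 3.097 (3.03 to 3.16) for CST7. SRGN was also higher at each step, at 1119, 1632, 2050 and 2321 CPM, but from a start at 48.2% of its highest level, with a log2 ratio of 1.05 (1.02 to 1.08).

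GNLY followed another course. It stood at 209 CPM at GZMB 0, 678 (641 to 716) at 1-2, 636 (611 to 661) at 3-9 and 594 (576 to 612) at 10 or more. The whole of its difference lay between the first 2 bins, with a log2 ratio of 1.70 (1.60 to 1.79). From GZMB 1-2 to 10 or more the log2 ratio was -0.19 (-0.28 to -0.10). From 1-2 to 3-9 it was -0.09 (-0.19 to 0.005), so these 2 bins were not separated. Thinned to 2000 UMIs per cell, the share of cells with a GNLY UMI was 17.0%, 50.9%, 56.4% and 49.7%, and since these shares peak in another bin than the CPM, no order among the 3 bins above 0 is read from them. Cells with 10 or more GNLY UMIs made up 5.49% of the GZMB 1-2 bin and held 31.3% of its GNLY UMIs. Without such cells, a split made after the values had been seen, the bins stood at 152, 501, 533 and 443 CPM, which is a description only, since the cells were left out by the value that is compared. The 8 monocyte markers, summed, stood at 28.7, 86.9, 4.95 and 16.1 CPM over the 4 bins. In cells with 10 or more GNLY UMIs they stood at 1.02 CPM. GZMK, a granzyme gene, ran 200, 604, 347 and 218 CPM over the bins, and EOMES 16.3, 29.2, 20.1 and 10.4 CPM. The part of the cells with these genes in the GNLY level was not tested.

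**Figure D1:**
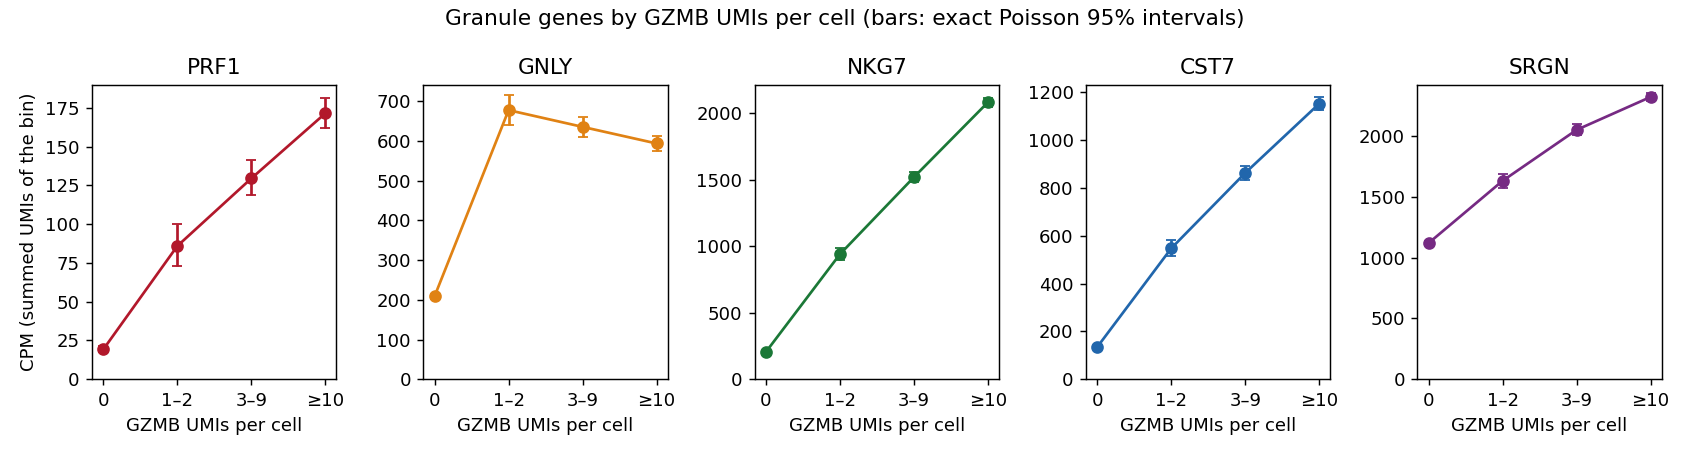
Level of each granule gene in CPM (vertical axis, from 0, own scale per panel) in cells binned by GZMB UMIs per cell (horizontal axis), with exact Poisson 95% intervals as bars. PRF1, NKG7, CST7 and SRGN are higher at every step, NKG7 from 205 to 2081 CPM, and GNLY is highest at GZMB 1-2 with 678 CPM.

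The order of gain was read as the level at GZMB 1-2 in percent of the level at 10 or more. Cells that should lack granules also held single GZMB UMIs. Of the 86 cells with B cell genes, 7 held GZMB, at 147, 111 and then no more than 1 UMI. At equal depth, PRF1, GNLY, NKG7 and CST7 were all absent from 64.9% at GZMB 0, 19.6% at 1-2 and 0.871% at 3-9. Whether the 1-2 bin mixes cells with and without granule genes was not tested, so the percents do not show a graded gain within cells. GNLY had reached 114%, SRGN 70.3%, PRF1 50.1%, CST7 47.5% and NKG7 45.1%. PRF1, CST7 and NKG7 were close to each other, and the log2 ratios of 10 or more over 1-2 behind them overlapped, with 0.997 (0.76 to 1.24) for PRF1, 1.07 (0.98 to 1.17) for CST7 and 1.15 (1.08 to 1.22) for NKG7. Counted as the gain over GZMB 0, SRGN was no longer ahead, at 42.6% of its gain against 43.8% for PRF1, 40.5% for CST7 and 39.1% for NKG7. GNLY had then 122% of its gain. Over all cells GNLY was thus the first of the 5 by either measure, but not within each gate described below. Its log2 ratio of GZMB 10 or more over 1-2 was -0.42 (-0.66 to -0.17) in CX3CR1+ cells and 0.37 (0.09 to 0.66) in CCR7+ cells, with 0.32 (-0.21 to 0.86) in TRAV10+ and 0.17 (-0.18 to 0.52) in EOMES+ CX3CR1- cells. SRGN had a lower ratio than GNLY in the last 3 of these, at 0.23 (0.09 to 0.38), 0.07 (-0.14 to 0.29) and -0.17 (-0.41 to 0.07), though the intervals overlapped.

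In the first step, from GZMB 0 to 1-2, 4 of 5 members were past 2-fold higher (PRF1, GNLY, NKG7 and CST7), against 0.728% of all genes tested. From 1-2 to 3-9 the count was 0 of 5, against 0.167%, with NKG7 nearest at a log2 ratio of 0.69 (0.62 to 0.77). From 3-9 to 10 or more it was again 0 of 5, against 0.108%, with NKG7 at 0.45 (0.41 to 0.50). The highest bin was also split after its values had been seen. NKG7 stood at 1924 CPM in the 1130 cells with 10-19 GZMB UMIs, 2360 in the 510 cells with 20-39 and 2190 in the 39 cells with 40 or more, while GNLY stood at 593, 588 and 660. In the last of these groups only 84.6% of cells held a UMI of NKG7, and it includes the 2 cells with B cell genes named above. These 2 cells also held 7 and 14 UMIs of IRF7 and 5 and 1 of TCF4. They are not all of that group's cells without NKG7, and the others were not described.

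**Figure D2:**
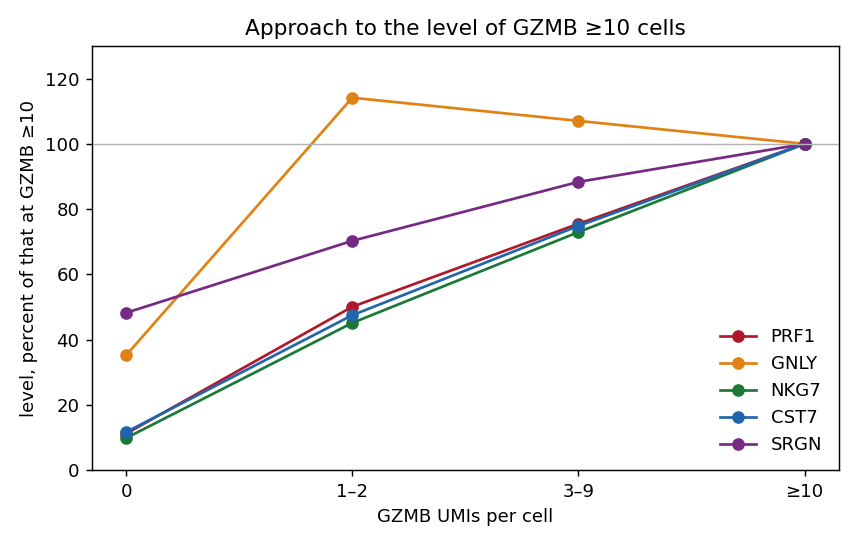
Level of each granule gene in percent of its level in cells with 10 or more GZMB UMIs (vertical axis) by GZMB UMIs per cell (horizontal axis), 1 line per gene. GNLY stands at 114% at GZMB 1-2, SRGN starts at 48.2%, and PRF1, NKG7 and CST7 run almost on 1 line.

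Counted per cell at equal depth, in the 7106 cells with 2000 or more UMIs, NKG7 was the member seen most often after SRGN. Of the GZMB 10 or more cells, 97.0% held a thinned UMI of NKG7, 88.5% of CST7, 49.7% of GNLY and 28.6% of PRF1. Of the GZMB 0 cells the shares were 22.9%, 18.3%, 17.0% and 3.40%. Leaving out SRGN, which 89.6% of all thinned cells held, none of the other 4 was found in 64.9% of GZMB 0 cells and in 0.544% of GZMB 10 or more cells. All 4 were found together in 1.01% and 13.7%.

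The commonest set among cells with any of the 4 was GNLY, NKG7 and CST7, in 16.5% of all thinned cells. NKG7 with CST7 followed at 14.0%, NKG7 alone at 6.70% and all 4 at 5.66%. PRF1 rarely occurred without NKG7. Of 903 cells with PRF1, 91.5% also held NKG7, against 53.3% of all cells, and 54.7% held GNLY, against 32.5%. Those with PRF1 held GZMB in 82.3%. The 2949 cells with GZMB had similar shares, 93.4% with NKG7 and 52.6% with GNLY, so these shares are not particular to PRF1. GNLY alone, in 2.80% of cells, came with GZMB in 7.04% of cases, PRF1 alone in 14.7%, CST7 alone in 15.0% and NKG7 alone in 34.0%. The cells with NKG7 and CST7 but neither GNLY nor PRF1 held GZMB in 80.8%.

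Across the 7106 cells thinned to equal depth and 3012 genes, the genes whose pattern was most like NKG7 were GZMB (Pearson r = 0.75), CST7 (0.67) and HCST (0.60), and those most like CST7 were NKG7 (0.67), GZMB (0.66) and HCST (0.52). HCST is the signalling adaptor of the receptor NKG2D. SRGN was most like B2M (0.45), S100A4 (0.45) and NKG7 (0.45). For GNLY the nearest were NKG7 (0.36), S100A4 (0.35) and CST7 (0.31), and for PRF1 NKG7 (0.34), GZMB (0.33) and CST7 (0.30). These are descriptions over cells of 1 library. The thinned cells held 1149 UMIs of PRF1, 6074 of GNLY, 7878 of CST7, 13546 of NKG7 and 23110 of SRGN.

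Other genes of the granule pathway were read from fixed lists in the same contrast, GZMB 10 or more over 0, where 2.76% of all genes tested were past 2-fold higher and 1.37% lower, and their median was 0.10 on the log2 scale of CPM + 10. Of the 8 granule proteases and their controls, 5 were past 2-fold higher and 1 lower, with a median of 1.01. SERPINB9, the inhibitor of granzyme B, had a log2 ratio of CPM of 1.74 (1.61 to 1.87), CTSC, the cathepsin that activates granzymes, 1.32 (1.13 to 1.51), and CTSW, a cathepsin of killer cells, 1.12 (0.999 to 1.25). CTSL, another cathepsin, was the one lower, at -1.96 (-2.33 to -1.60). Cystatin F and the cathepsins it is known to act on thus did not all share a direction.

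Of 16 genes for granule movement and release, 3 were past 2-fold higher and none lower, with a median of 0.44. They were RAB27A, the small GTPase that docks granules, at 1.35 (1.21 to 1.48), and its effectors SYTL2 at 1.79 (1.57 to 2.01) and SYTL3 at 1.72 (1.51 to 1.93). UNC13D, which primes granules for fusion, was at 0.52 (0.37 to 0.68). Of the 8 genes of the granule membrane and lysosome that could be tested, 0 were past 2-fold in either direction, and LAMP1 was nearest at 0.93 (0.85 to 1.01). Among the 7 partners of lipid binding and proteoglycans tested, 2 were higher, SRGN itself and CHST12, a chondroitin sulphotransferase, at 1.38 (1.25 to 1.50). CALR, calreticulin, which binds perforin in the granule, was at 0.84 (0.78 to 0.90).

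Of 9 effector transcription factors tested, 7 were past 2-fold higher, among them ZEB2 at 4.04 (3.84 to 4.24), TBX21 at 3.19 (2.90 to 3.49) and RUNX3 at 2.32 (2.19 to 2.46), and EOMES was at -0.65 (-1.04 to -0.27). Of the 3 granzymes tested, 2 were higher, GZMB by construction and GZMM at 1.77 (1.64 to 1.89), and GZMK was at 0.13 (0.04 to 0.22). The GZMK level was highest between these 2 bins, at 604 CPM at GZMB 1-2. GZMA had 38 UMIs in all, under the minimum. Of the 4 death ligands, 1 was lower, TNFSF10 at -1.999 (-2.45 to -1.58). FASLG had 18 UMIs at GZMB 0 and 78 at 10 or more, a log2 ratio of 3.53 (2.78 to 4.36), but stayed within 2-fold once 10 CPM were added. Of 5 naive genes tested, 4 were lower, CCR7 most at -2.996 (-3.22 to -2.78).

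The gates compare cells with at least 1 UMI of a gene. A cell without a UMI may still express the gene at this depth. CX3CR1, a chemokine receptor of effector cells, gave 1293 cells, EOMES, a T-box transcription factor, 363, of which 322 had no CX3CR1 UMI, TRAV10, a variable segment of the T cell receptor alpha chain, 248, and CCR7, the receptor for homing to lymph nodes, 2214. No UMI of the 4 was found in 3818 cells. The gates overlap, and 138 of the 363 EOMES+ cells also held a CCR7 UMI. The CX3CR1+ cells were mostly high in GZMB, with 62.1% (59.4 to 64.8) at 10 or more UMIs, against 9.63% (6.64 to 13.4) of EOMES+ CX3CR1- cells, 14.9% (10.7 to 19.97) of TRAV10+ cells and 4.38% (3.57 to 5.32) of CCR7+ cells.

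NKG7, CST7, SRGN and PRF1 were highest in CX3CR1+ cells, and GNLY in EOMES+ CX3CR1- cells. In the order CX3CR1+, EOMES+ CX3CR1-, TRAV10+ and CCR7+, NKG7 stood at 1955, 1107, 900 and 241 CPM. CST7 stood at 1062, 765, 498 and 150 CPM and PRF1 at 165, 115, 105 and 23.7 CPM. The counting intervals of the middle 2 groups overlapped for PRF1 (97.8 to 135 and 87.1 to 126). SRGN ran 2296, 1579, 1851 and 1030 CPM, with TRAV10+ cells second. GNLY ran 497, 800, 356 and 153 CPM.

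**Figure D3:**
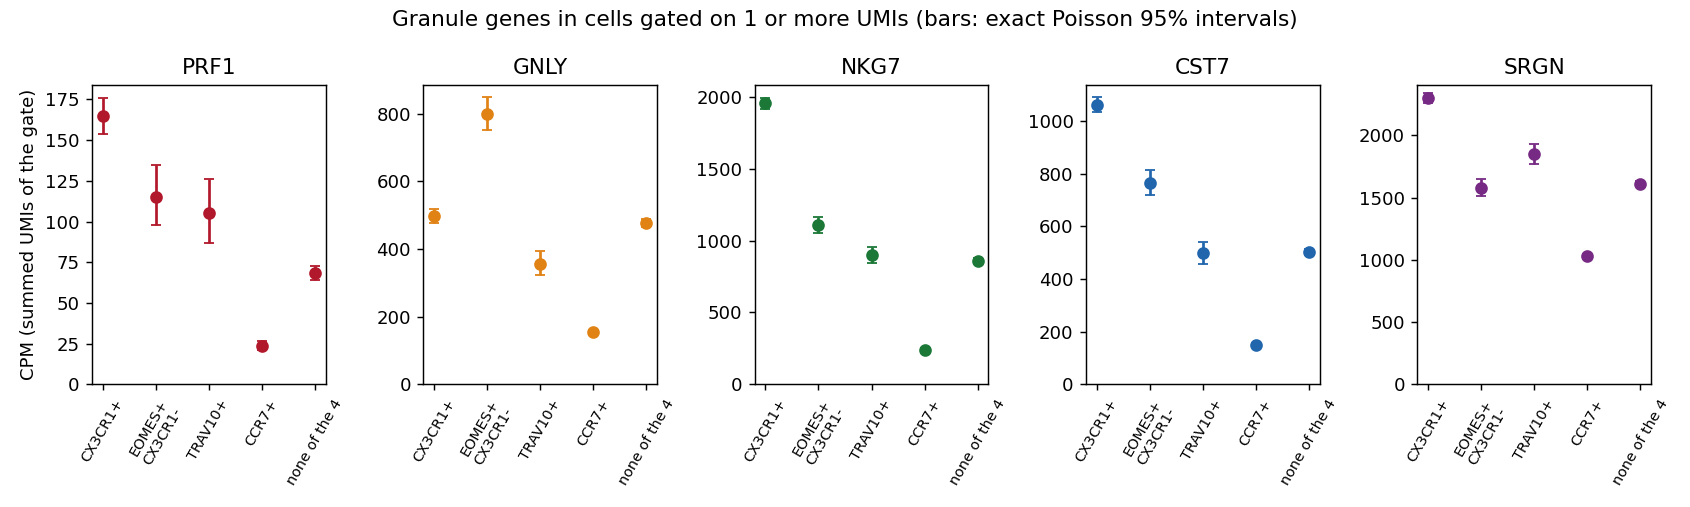
Level of each granule gene in CPM (vertical axis, from 0, own scale per panel) in cells with 1 or more UMIs of the named gate gene and in cells with none of the 4 genes, with exact Poisson 95% intervals as bars. CCR7+ cells are lowest for all 5 genes, and GNLY is highest in EOMES+ CX3CR1- cells, at 800 CPM.

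CX3CR1+ cells over CX3CR1- cells gave log2 ratios of 1.68 (1.64 to 1.72) for NKG7, 1.65 (1.52 to 1.77) for PRF1 and 1.55 (1.50 to 1.60) for CST7. These 3 of 5 members were past 2-fold higher, against 0.925% of all genes. SRGN was at 0.73 (0.70 to 0.76) and GNLY lowest at 0.49 (0.42 to 0.55). The 40 CX3CR1+ cells with no GZMB UMI stood at 815 CPM (671 to 981) for NKG7, against 205 CPM for all GZMB 0 cells. At GZMB 10 or more, CX3CR1+ cells stood at 2180 CPM for NKG7, 1157 for CST7, 2389 for SRGN, 183 for PRF1 and 487 for GNLY. Cells of that bin with none of the 4 gate genes stood at 2138, 1231, 2389, 170 and 729 CPM.

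EOMES+ CX3CR1- over CX3CR1+ cells gave negative log2 ratios for 4 members and a positive one for GNLY, 0.69 (0.58 to 0.79). The others were -0.82 (-0.90 to -0.74) for NKG7, -0.54 (-0.61 to -0.47) for SRGN, -0.52 (-0.77 to -0.27) for PRF1 and -0.47 (-0.57 to -0.38) for CST7, so that 0 of 5 were past 2-fold lower, against 0.847% of all genes. GZMB itself fell by 2.45 on the log2 scale (-2.55 to -2.35). With 2 UMIs required of each gate gene, which left 94 EOMES+ cells, the GNLY ratio was 1.51 and that of PRF1 -0.18.

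EOMES+ CX3CR1- cells held granule RNA without GZMB. In the 209 of them with no GZMB UMI, PRF1 stood at 112 CPM (89.99 to 137), GNLY at 720 (663 to 780), NKG7 at 915 (851 to 983), CST7 at 688 (632 to 747) and SRGN at 1495 (1412 to 1581). Compared with cells that had none of EOMES, CX3CR1 and GZMB, the log2 ratios were 2.98 for PRF1, 2.70 for CST7, 2.46 for NKG7, 1.97 for GNLY and 0.45 for SRGN. Within EOMES+ CX3CR1- cells, the log2 ratio of GZMB 10 or more over 0 was 0.81 (0.61 to 1.01) for NKG7, 0.60 (0.35 to 0.84) for CST7 and -0.37 (-1.26 to 0.43) for PRF1, the last from 15 and 92 UMIs.

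**Figure D4:**
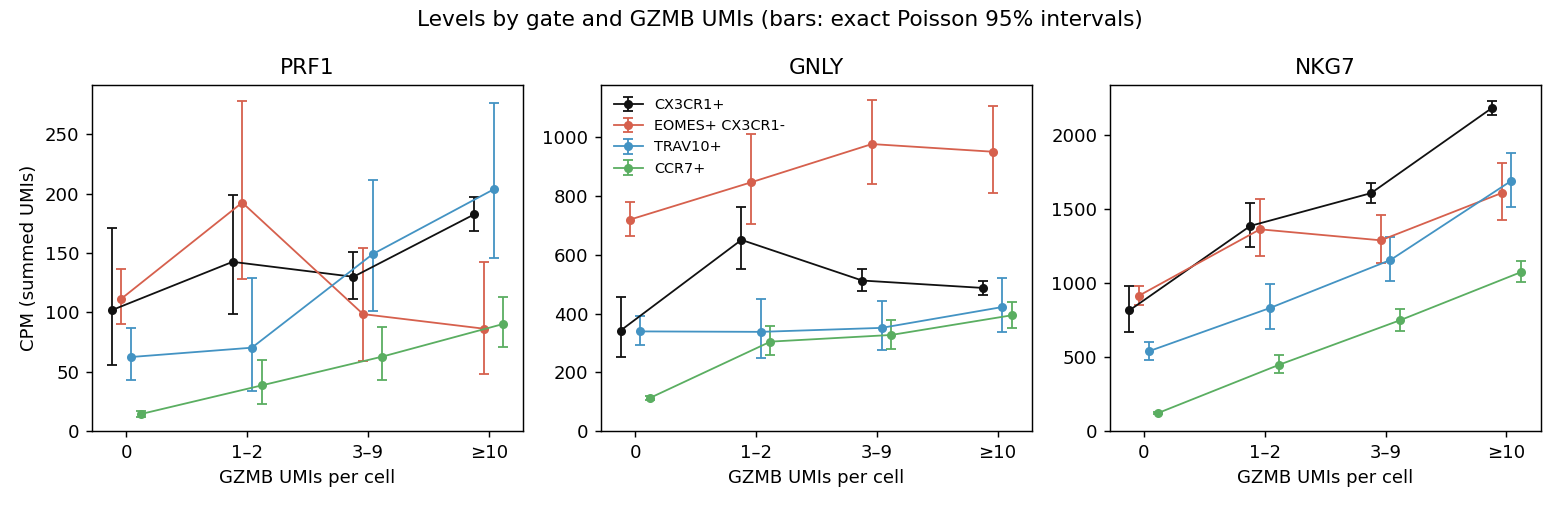
Level of PRF1, GNLY and NKG7 in CPM (vertical axis, from 0) by GZMB UMIs per cell (horizontal axis) in 4 gates, with exact Poisson 95% intervals as bars. GNLY in EOMES+ CX3CR1- cells lies above the other gates in every bin, from 720 CPM at GZMB 0, though its interval overlaps that of CX3CR1+ cells at 1-2, and PRF1 there stands at 112 CPM at GZMB 0 and 86.3 CPM at 10 or more.

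GZMK, another granzyme, was carried by 81.0% of the 363 EOMES+ cells, and a split of the GZMB 0 cells on GZMK was added after these values had been seen. The 563 GZMK+ cells stood at 85.4 CPM for PRF1, 759 for GNLY, 867 for NKG7, 628 for CST7 and 1610 for SRGN. The 3691 GZMK- cells stood at 10.3, 135, 116, 68.2 and 1053 CPM. Past 2-fold higher were 4 of 5 members, all but SRGN, against 0.689% of all genes, with log2 ratios of 3.20 (3.09 to 3.32) for CST7, 3.06 (2.74 to 3.37) for PRF1, 2.91 (2.81 to 2.9997) for NKG7 and 2.49 (2.40 to 2.58) for GNLY. In cells with 10 or more GZMB UMIs the same split gave -0.12 (-0.32 to 0.07) for PRF1, -0.05 for NKG7, 0.02 for CST7 and -0.06 for SRGN, with GNLY at 0.39 (0.29 to 0.49).

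Over cells of all GZMB bins together, the ratios of TRAV10+ cells to the rest were small. Of TRAV10+ cells 14.9% had 10 or more GZMB UMIs, against 22.3% of TRAV10- cells. NKG7 had a log2 ratio to TRAV10- cells of 0.11 (0.02 to 0.20), CST7 of 0.06 (-0.07 to 0.18) and GNLY of -0.09 (-0.24 to 0.05). SRGN was at 0.28 (0.21 to 0.34) and PRF1 at 0.59 (0.31 to 0.86), and 0 of 5 were past 2-fold higher, against 0.217% of all genes. The summed NK cell markers stood at 764 CPM in TRAV10+ cells, where 4 of the 7 markers found had no UMI, and their part was not tested. The NKG7 value turned to -0.022 in cells thinned to 2000 UMIs, and the GNLY and CST7 values also changed sign under other settings. At GZMB 0, TRAV10+ cells stood at 539 CPM for NKG7, 304 for CST7, 62.5 for PRF1, 339 for GNLY and 1591 for SRGN. All GZMB 0 cells stood at 205, 135, 19.2, 209 and 1119 CPM. GZMB 0 cells with none of the 4 gate genes stood at 229, 147, 16.6, 277 and 1226 CPM, nearer to the TRAV10+ cells for GNLY and SRGN. At GZMB 10 or more, TRAV10+ cells stood at 1688, 949, 204, 422 and 2140 CPM. All cells of that bin stood at 2081, 1153, 171, 594 and 2321 CPM. Within TRAV10+ cells PRF1 ran from 62.5 CPM at GZMB 0 to 204 at 10 or more, a log2 ratio of 1.70 (1.02 to 2.40), and GNLY from 339 to 422 CPM, 0.32 (-0.07 to 0.69).

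CCR7+ cells were lower than CCR7- cells for every member. The log2 ratios were -2.26 (-2.32 to -2.20) for NKG7, -2.13 (-2.21 to -2.06) for CST7, -2.03 (-2.23 to -1.84) for PRF1, -1.70 (-1.78 to -1.63) for GNLY and -0.81 (-0.84 to -0.78) for SRGN. Past 2-fold lower were 4 of 5, all but SRGN, against 1.18% of all genes. The 1945 CCR7+ cells with no GZMB UMI stood at 14.4 CPM for PRF1, 113 for GNLY, 124 for NKG7 and 87.6 for CST7, each above the value in the cells with B cell genes, and still at 968 CPM for SRGN. Over all GZMB bins, the 2214 CCR7+ cells included 138 with an EOMES UMI and 300 with a GZMK UMI. The part of such cells in these levels was not tested.

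The 97 CCR7+ cells with 10 or more GZMB UMIs stood apart in depth. They had a median of 7930 UMIs, 718 CD4 tag UMIs and 914 CD8 tag UMIs, and 54.6% of them had a doublet score in the top 5% of cells, against 7.33% of all cells with 10 or more GZMB UMIs. NKG7 stood at 1073 CPM there and PRF1 at 90.3 CPM. The part of joined cells in these values was not tested. Without the cells of highest doublet score, the log2 ratio of CCR7+ over CCR7- cells was -2.75 for NKG7, -2.54 for CST7, -2.40 for PRF1, -1.86 for GNLY and -0.87 for SRGN.

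By surface tag, the members were lower in cells with more CD4 tag. From the lowest to the highest quartile of CD4 tag UMIs, NKG7 stood at 1402, 1080, 613 and 526 CPM, CST7 at 795, 603, 362 and 312, PRF1 at 138, 87.0, 44.1 and 44.3, GNLY at 511, 427, 358 and 289 and SRGN at 1740, 1710, 1457 and 1372. Median depth rose over the same quartiles from 3046 to 4822 UMIs, and its part was not tested. In the highest against the lowest quartile 3 of 5 members were past 2-fold lower (PRF1, NKG7 and CST7), against 1.23% of all genes. Over CD8 tag quartiles all 5 were higher in the middle 2 quartiles than in either outer one, with NKG7 at 715, 1033, 978 and 667 CPM and PRF1 at 51.3, 81.6, 87.0 and 65.3. Between the outer quartiles 0 of 5 were past 2-fold higher, against 0.0591% of all genes. Depth was not matched over the CD8 tag quartiles either, and its part was not tested.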

How the data were processed

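DP T cells of 1 rhesus monkey were sequenced with 5′ V(D)J chemistry. Per the submitters' processing notes, Cell Ranger 3.1.0, STAR 2.5.1b and the Mmul_10 build were used. The UMI counts of 7923 barcodes were used as the authors deposited them, raw and not normalized. The gene types in the feature list and the barcode names were used as deposited and are of other units, not measurements. The release of the annotation was not given in the sources used here.

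The study's filters were applied to the counts. They kept genes found in 3 or more barcodes, and then cells in which 200 to 4000 genes were found and mitochondrial UMIs made up no more than 20%, counting 13 named and 2 unnamed mitochondrial features. CPM are summed UMIs per 1000000. Intervals are exact Poisson or binomial, and ratio intervals treat the 2 counts as a binomial draw. A gene counted as past 2-fold when its log2 ratio of CPM + 10 reached 1, among genes with at least 50 UMIs. Shares at equal depth use cells thinned to 2000 UMIs, which left out 495 cells. The loss was uneven over the GZMB bins, with 286 of 4254 cells at 0, 78 of 528 at 1-2, 107 of 1140 at 3-9 and 24 of 1679 at 10 or more. Its part in the shares was not tested. Scrublet in scanpy 1.11.5 marked 0 of 7601 cells as doublets, so its calls were not used and none was removed. Its scores served only to rank cells and were not checked against known doublets. Promoters were read from RefSeq's Mmul_10. The window before CST7 is not reported here. Analysis used Python 3.11.15, numpy 2.4.6, scipy 1.17.1 and pandas 2.3.3, and was tested on simulated data.

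The members, lists and gates were chosen with earlier results of these data known. Named genes are the members, the gate genes, the 3 genes of highest correlation with each member, and genes of the fixed lists with the largest or smallest ratios or of a role described. The values cover 1 animal, so differences between animals cannot be told apart from differences between cells.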

Additional observations from a re-analysis of the deposited data

Results flagged for a closer look

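From GZMB 1-2 to 10 or more, PRF1 moved in opposite directions in different gates. Its log2 ratio was -1.16 (-2.17 to -0.20) in EOMES+ CX3CR1- cells, from 28 and 15 UMIs, against 1.53 (0.51 to 2.70) in TRAV10+ cells and 1.23 (0.49 to 2.04) in CCR7+ cells. GNLY had a log2 ratio of -0.42 (-0.66 to -0.17) in CX3CR1+ cells against 0.37 (0.09 to 0.66) in CCR7+ cells. The CCR7+ values rest on 97 cells with 10 or more GZMB UMIs, whose median depth was 7930 UMIs and of which 54.6% had a doublet score in the top 5%. These differences were not tested, since there is 1 sample.

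The 322 barcodes that the cell filter removed also held the members, above the limit that a count of 0 allows (2.32 CPM). The limit is passed by any gene with more than 3 UMIs, and no background of free RNA was measured in these barcodes, so the values are descriptions. They stood at 66.6 CPM for PRF1, 274 for GNLY, 556 for NKG7, 284 for CST7 and 1105 for SRGN.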

How the results depend on the processing

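The 7 results for each of 5 genes were recomputed under 345 alternative values. Of these, 253 stayed within the counting interval, 91 moved outside it with the same sign, and 1 whose interval excluded 0 reversed. Counting also ratios whose interval includes 0, 5 changed sign, all of TRAV10+ over TRAV10- cells. They were NKG7 (below), CST7 at -0.011 as a mean over cells, and GNLY at 0.018 without the highest doublet scores and at 0.022 without the cells with most UMIs or without TRAV12-2 cells. Leaving out the B cell gene cells or the TRAV12-2 cells was chosen after seeing the data. Restricting mitochondrial features to the named ones (7876 cells) and a total without members and granzymes moved no value outside its interval. Levels over all cells, in the order PRF1, GNLY, NKG7, CST7 and SRGN, were 80.8, 427, 953, 554 and 1626 CPM thinned to 2000 UMIs, 87.7, 431, 986, 561 and 1664 as means over cells, 75.5, 397, 890, 513 and 1596 without the 5% of cells with the most UMIs, and 66.9, 351, 797, 456 and 1518 without TRAV12-2 cells. At a mitochondrial limit of 10% (6769 cells), NKG7 was 846, CST7 489 and SRGN 1557, and without the B cell gene cells NKG7 was 845 and SRGN 1554. The log2 ratio of GZMB 10 or more over 0 was 2.80 for PRF1, 1.31 for GNLY, 3.15 for NKG7 and 2.92 for CST7 as means over cells. It was 1.20 for GNLY, 3.19 for NKG7 and 2.92 for CST7 with GZMB bins on thinned counts, and 1.61 for GNLY, 3.48 for NKG7, 3.25 for CST7 and 1.12 for SRGN without the highest doublet scores. GNLY was 1.27 thinned and 1.40 without TRAV12-2 cells, and SRGN 1.10 without the cells with most UMIs. The percent reached at GZMB 1-2 was 49.4 for NKG7, 50.8 for CST7 and 73.9 for SRGN with thinned bins, 49.4 for NKG7 as means over cells, 105 for GNLY and 67.5 for SRGN without the highest doublet scores, and 132 (thinned) and 124 (without TRAV12-2 cells) for GNLY, so GNLY stayed above 100 and the order of PRF1, CST7 and NKG7 around 50 is not settled. CX3CR1+ over CX3CR1- gave, in the same order of genes, 1.83, 0.13, 1.84, 1.65 and 0.80 with gates of 2 UMIs, 1.49, 0.38, 1.51, 1.40 and 0.69 as means over cells, 1.48, 0.34, 1.58, 1.40 and 0.66 thinned, and 1.80, 0.61, 1.80, 1.68 and 0.80 without the highest doublet scores. Without TRAV12-2 cells NKG7 was 1.75 and CST7 1.63. EOMES+ CX3CR1- over CX3CR1+ gave -0.18 for PRF1, 1.51 for GNLY and -0.61 for SRGN with gates of 2 UMIs, and 0.85 for GNLY without TRAV12-2 cells. TRAV10+ over TRAV10- gave 0.21 for NKG7 and 0.37 for SRGN with gates of 2 UMIs, and NKG7 reversed to -0.022 thinned. CCR7+ over CCR7- gave -2.25, -1.85, -2.50 and -2.32 for PRF1, GNLY, NKG7 and CST7 as means over cells, -2.40, -1.86, -2.75, -2.54 and -0.87 for all 5 without the highest doublet scores, -1.89, -2.52 and -2.36 for GNLY, NKG7 and CST7 without the cells with most UMIs, -2.50, -2.31 and -0.85 for NKG7, CST7 and SRGN thinned, and -0.88 for SRGN with gates of 2 UMIs. The cause was not tested. No paired analysis was possible because there is 1 RNA sample. Depth limits PRF1 most, with at most 10 UMIs in a cell.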

Other observations

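T cell receptor variable segments were read from the same RNA counts, a split chosen after its values had been seen. Among cells with 3 or more GZMB UMIs, 18 segments had at least 40 cells with 2 or more UMIs of the segment. PRF1 ranged 12.7-fold over them, from 20.9 CPM (7.66 to 45.5) in the 56 cells with TRBV10-1 to 266 CPM (217 to 323) in the 90 cells with TRBV29-1. GNLY ranged 5.48-fold, from 198 CPM (150 to 257) in TRBV10-1 cells to 1086 CPM (1026 to 1150) in the 282 TRAV12-2 cells. NKG7 ranged 1.68-fold, CST7 1.75-fold and SRGN 1.64-fold. SRGN was highest in the TRBV10-1 cells, at 2791 CPM, where PRF1 and GNLY were lowest, and NKG7 (1778 CPM) and CST7 (1121 CPM) lay within the range of the other segments.

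Of the TRBV10-1 cells, 42.9% also carried TRGV1, a gamma chain segment, while PRF1 stood at 145 CPM over all 102 TRGV1 cells. TRBV29-1 cells, highest for PRF1, stood at 305 CPM for GNLY. Cells of 1 segment can come from few clones, and segments of like sequence can share reads, so the values describe these cells only.

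The 946 cells with KLRF1, an NK cell receptor, and no CX3CR1 were another gate chosen after seeing values. They stood at 783 CPM for GNLY (755 to 812), 1625 for NKG7, 946 for CST7, 2068 for SRGN and 145 for PRF1 (133 to 158), and 43.8% of them had 10 or more GZMB UMIs. The 203 cells with 10 or more GNLY UMIs were spread over GZMB, with 38.9% at 0 UMIs and 28.1% at 10 or more, and 44.3% of them held GZMK. They stood at 123 CPM for PRF1 and 1296 CPM for NKG7.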
